A study of Mus musculus with 6 samples.

Results

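The cytochrome P450 genes described here are the protein-coding members of the Cyp1a, Cyp1b, Cyp2c, Cyp2d, Cyp2e, Cyp2f, Cyp2g, Cyp2j, Cyp2r, Cyp2s, Cyp2u, Cyp4b, Cyp4f and Cyp4v subfamilies. These genes were picked by gene symbol and biotype and by no measured value, but with earlier results of these data known. They number 50 of the 45777 genes in the deposited table, with 15 in Cyp2c, 9 in Cyp4f, 8 in Cyp2d, 7 in Cyp2j, 2 in Cyp1a and 1 in each of the other subfamilies. RNA from liver of C57BL/6 mice aged 10 weeks was sequenced in 6 libraries. The WT group (n = 3) carried floxed Pak4 (Pak4 flox/flox), that is, alleles flanked by sites for Cre recombinase, and no Cre is named for it. The Pak4_KO group (n = 3) carried the same floxed alleles and Alb-Cre, a transgene that makes Cre from the albumin promoter and so mainly in hepatocytes. Both groups therefore share the floxed alleles, and WT is not a group of unmodified animals, nor is there a group with Alb-Cre alone. Whether replicates are separate animals is not in the labels, and p-values here reflect only how far these libraries spread, which may be technical.

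P450 enzymes are haem proteins of the endoplasmic reticulum that use electrons from the reductase Por, and in part from cytochrome b5, to insert oxygen into lipophilic substrates. Families 1 and 2 oxidise many drugs, toxins, steroids and bile acids, and the Cyp2c and Cyp2j enzymes also turn arachidonic acid into epoxides. Family 4 hydroxylates the far end of fatty acids and leukotrienes. In the liver several of these genes are zoned, with Cyp2e1 and Cyp1a2 high around the central vein and Cyp2f2 high around the portal vein, and several differ between the sexes under the control of growth hormone.

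Library totals ran from 39603272 to 52521400 reads, and the P450 genes took 0.83% to 1.06% of them. Pak4, the deleted kinase gene, stood at 6.51 ± 0.615 CPM in WT, against 1.84 ± 0.441 CPM in Pak4_KO (SD, n = 3 each). CPM here are counts scaled to library size by TMM, which corrects for differences in library composition. The Pak4 log2 fold change was -1.82 (SE 0.235, edgeR adjusted p = 0.0169). Its call was lost without WT replicate 1 (adjusted p = 0.0562), WT replicate 2 (0.0608) or Pak4_KO replicate 3 (0.0936), with Pak4 lower in each case. The hepatocyte genes Alb and Apob, at 29566 ± 5747 and 14036 ± 962 CPM in WT, mark the tissue as liver. Of 6 lung markers, Sftpc, Sftpb, Scgb1a1 and Scgb3a2 had 0 reads in every library, while Sftpa1 was at 4.77 to 23.2 CPM and Foxj1 at up to 0.18 CPM. Of 7 markers of exocrine pancreas, Cpa1, Cpb1, Pnlip, Prss2 and Ctrb1 had 0 reads in every library, while Cela1 was at 2.98 to 11.5 CPM and Cela2a at up to 0.61 CPM.

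None of the P450 genes was called changed in Pak4_KO liver by edgeR, and DESeq2 called Cyp2c70 alone. Of the 50 genes, 41 had enough reads to be tested, and 0 of the 41 passed an edgeR adjusted p of 0.05, where 76 of 16197 genes did (0.469%). At an unadjusted p under 0.05 there were 5 of the 41 (12.2%), against 8.21% of all genes tested. These were Cyp2c70, Cyp2d12 and Cyp2j8, with negative log2 fold changes, and Cyp2c38 and Cyp4f17, with positive ones. The DESeq2 Wald test called 1 of the 41, Cyp2c70, against 2.06% of all genes. Levels of 4 genes (9.76%) lay lower in every Pak4_KO library than in every WT library, namely Cyp2c50, Cyp2c70, Cyp2d12 and Cyp2j8, where 6.06% of all genes did. Levels of 3 genes (7.32%), Cyp1b1, Cyp2c38 and Cyp4f17, lay higher in every Pak4_KO library, where 7.35% of all genes did.

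The log2 fold changes ran from -1.08 for Cyp2g1 to 0.83 for Cyp2c55, both genes of low level. Of the 41, 24 had a negative and 17 a positive value, 58.5% negative against 49.3% of all genes tested. Their median was -0.136, beside 0.004 over all genes, and without Pak4_KO replicate 3 it was 0.006. The 95% interval of the log2 fold change lay inside -1 to 1 for 28 of the 41, so for these a change of more than 2-fold lies outside the interval. In whole liver, fewer cells of a type and less RNA per cell cannot be told apart.

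**Figure D1:**
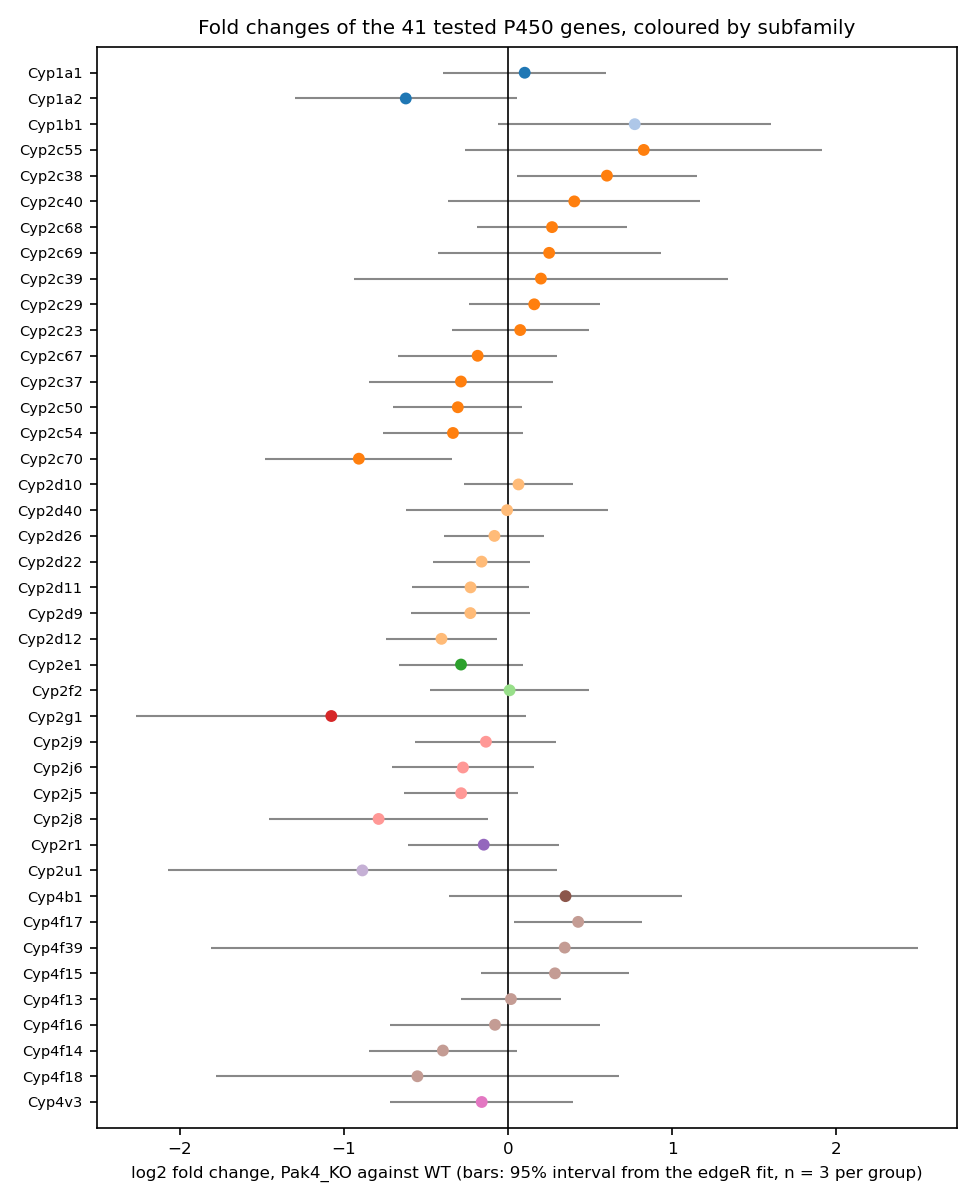
Log2 fold change of Pak4_KO against WT (x axis) for the 41 tested P450 genes (y axis), with bars for the 95% interval of the edgeR fit over 3 libraries per group and colours for the subfamilies. Cyp2c70 sits at -0.91 with an interval from -1.48 to -0.34, and most of the other bars cross 0.

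Per unit of length, Cyp2e1 was the most abundant of these transcripts. TPM, the authors' deposited share of transcripts after correction for length, is used wherever levels of different genes are set side by side. Cyp2e1, which oxidises ethanol and paracetamol, stood at 2868 ± 137 TPM in WT and made up 30.1% of the summed TPM of the 50 genes there. The Cyp2c genes together made up 33.8% and the Cyp2d genes 22.1% of it. Next in WT came Cyp2c70 (1119 ± 70.7 TPM), Cyp2d9 (942 ± 130 TPM), Cyp2c29 (830.1 ± 161 TPM) and Cyp2d10 (638 ± 39.1 TPM), and of these neighbours Cyp2c70 and Cyp2d9 overlapped between libraries, as did Cyp2d9 and Cyp2c29. In Pak4_KO the order behind Cyp2e1 (2488 ± 385 TPM) was Cyp2c29 (979 ± 24.8 TPM), Cyp2d9 (847 ± 114 TPM), Cyp2d10 (699 ± 81.1 TPM) and Cyp2c70 (624 ± 196 TPM). Cyp2c70 thus ranked below Cyp2c29, Cyp2d9 and Cyp2d10 in Pak4_KO and above all of them in WT, although neighbours in the Pak4_KO order overlapped between libraries.

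**Figure D2:**
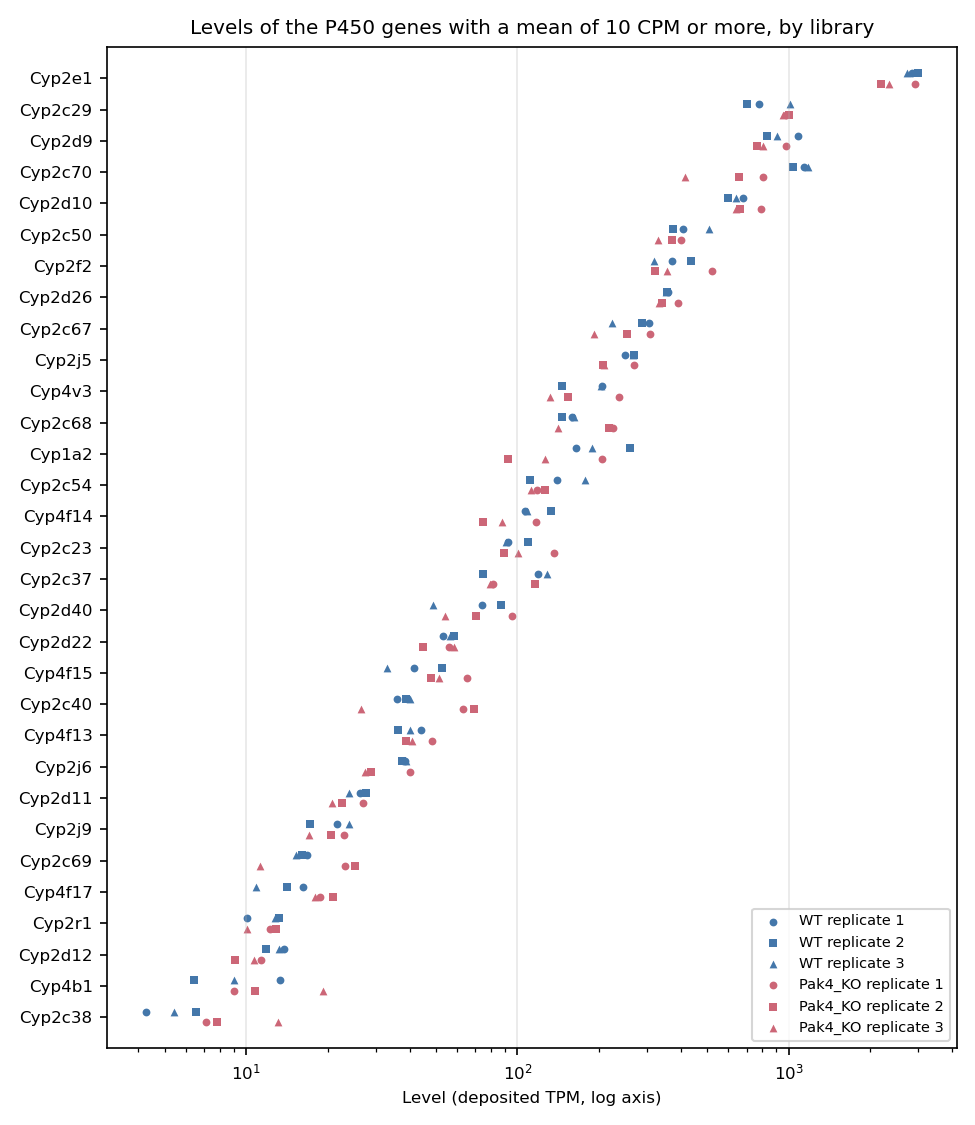
Deposited TPM on a log axis (x) for the 31 P450 genes with a mean of at least 10 CPM (y), with 1 point per library, blue for WT, red for Pak4_KO and the marker shape for the replicate number. The levels span Cyp2e1, at over 2100 TPM in each library, to Cyp2c38, at 4.26 to 13.1 TPM.

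At the other end, Cyp2c65, Cyp2c66, Cyp2j11, Cyp2j12, Cyp2j13 and Cyp4f40 had 0 reads in all 6 libraries. A count of 0 allows up to 3 reads, or 0.0571 to 0.0758 CPM by library, for counting error only. Cyp2d34 (35 reads over the 6 libraries), Cyp2s1 (39 reads) and Cyp4f37 (14 reads) were too low to test.

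Cyp2c70, the enzyme that in mice makes muricholic acids from chenodeoxycholic acid, had the smallest p of the set. Its levels were 1126, 1097 and 1237 CPM in the WT libraries and 788, 672 and 382 CPM in the Pak4_KO libraries. All 3 Pak4_KO libraries lay below all 3 WT libraries, and replicate 3 was the lowest. The log2 fold change was -0.91 (SE 0.25, 95% interval -1.48 to -0.34), or 1.88-fold lower, with an edgeR adjusted p = 0.275 and a DESeq2 adjusted p = 0.0184. Without Pak4_KO replicate 3 the log2 fold change was -0.66. Cyp2c70 (NCBI gene 226105, chromosome 19, 40153361 to 40187286, GRCm38) shared none of its transcript stretches of 100 bases with another gene.

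Cyp2c70 lies at the end of the Cyp2c gene cluster on chromosome 19, and its promoter and those of Cyp2c40, Cyp2c67, Cyp2c68 and Cyp2c69, which lie together further inside that cluster, are shown because all 5 hold the same 9-base match. They are the RefSeq sequences of GRCm38.p6 from 250 bases before to 50 bases after the gene start, 5′ to 3′ on the gene's strand. Capitals mark CAAAGTCCA, a core sequence recognised by HNF4α, the nuclear receptor that maintains hepatocyte identity.
Cyp2c70 (chr19:40187237-40187536, minus strand): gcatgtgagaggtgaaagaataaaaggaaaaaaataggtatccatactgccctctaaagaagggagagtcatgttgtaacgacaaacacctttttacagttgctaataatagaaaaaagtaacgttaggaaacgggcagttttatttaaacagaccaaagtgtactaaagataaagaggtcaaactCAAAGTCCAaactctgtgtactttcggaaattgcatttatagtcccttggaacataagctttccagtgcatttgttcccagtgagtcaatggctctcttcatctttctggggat
Cyp2c40 (chr19:39812765-39813064, minus strand): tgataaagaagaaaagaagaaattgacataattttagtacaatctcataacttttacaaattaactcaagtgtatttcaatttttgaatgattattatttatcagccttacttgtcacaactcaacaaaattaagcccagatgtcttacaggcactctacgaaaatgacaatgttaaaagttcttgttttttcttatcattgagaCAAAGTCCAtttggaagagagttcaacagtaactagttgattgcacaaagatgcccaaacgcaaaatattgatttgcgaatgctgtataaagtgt
Cyp2c69 (chr19:39886720-39887019, minus strand): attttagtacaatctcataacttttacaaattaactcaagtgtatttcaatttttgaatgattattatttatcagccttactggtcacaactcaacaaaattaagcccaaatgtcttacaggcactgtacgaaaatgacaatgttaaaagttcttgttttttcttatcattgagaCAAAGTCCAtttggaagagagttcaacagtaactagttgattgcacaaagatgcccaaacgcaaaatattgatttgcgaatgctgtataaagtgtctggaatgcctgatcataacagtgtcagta
Cyp2c68 (chr19:39741052-39741351, minus strand): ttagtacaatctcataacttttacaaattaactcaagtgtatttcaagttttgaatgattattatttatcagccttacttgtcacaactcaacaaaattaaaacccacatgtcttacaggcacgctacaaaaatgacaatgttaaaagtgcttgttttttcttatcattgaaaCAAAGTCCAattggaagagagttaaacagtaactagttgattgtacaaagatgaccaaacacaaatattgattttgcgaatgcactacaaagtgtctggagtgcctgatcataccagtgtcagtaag
Cyp2c67 (chr19:39648993-39649292, minus strand): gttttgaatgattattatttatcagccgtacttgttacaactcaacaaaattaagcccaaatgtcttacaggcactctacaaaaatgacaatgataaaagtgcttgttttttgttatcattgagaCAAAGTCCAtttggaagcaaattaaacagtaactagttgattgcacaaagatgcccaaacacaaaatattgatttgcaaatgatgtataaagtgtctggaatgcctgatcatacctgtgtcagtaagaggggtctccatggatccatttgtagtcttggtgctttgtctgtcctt

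The match ended 56 bases before the start of Cyp2c70 and 37 to 117 bases before the start of the other 4 genes. It was searched on both strands of 48 promoters that matched 42 of the 50 P450 genes. Besides these 5 genes only Cyp2c65, which had 0 reads, held it, while 0.475% of all 32851 RefSeq promoters did. Aligned bases of the Cyp2c40, Cyp2c67, Cyp2c68 and Cyp2c69 promoters were 91.6% to 98.9% identical by pair, so these 4 are not independent matches. Those of the Cyp2c40 and Cyp2c70 promoters were 63.1% identical. Cyp2c70 and Cyp2c67 had negative and Cyp2c40, Cyp2c68 and Cyp2c69 positive log2 fold changes, and all 95% intervals but that of Cyp2c70 crossed 0. The match is a description of letters, not a measured site, and its part in these values was not tested. Hnf4a itself stood at 842 ± 133 CPM in WT, against 691 ± 108 CPM in Pak4_KO (log2 fold change -0.29, SE 0.18, edgeR adjusted p = 0.756).

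Other motifs searched the same way were AAAGTCCA, which lies inside the first and was held by the same 6 genes (1.25% of all promoters), GCGTG of the aryl hydrocarbon receptor (11 of the 42 genes, among them Cyp1a1 and Cyp1b1, and 32.4% of all promoters) and its longer form TNGCGTG (Cyp2c68, and 5.07%). TTCNNNGAA of STAT factors was held by 4 genes (8.3% of all promoters) and TGTTTAC of FOXA factors by 3 (3.65%). ATTGCNNAA of C/EBP factors was held by 4, Cyp2c37, Cyp2c40, Cyp2c67 and Cyp2c69 (2.18%). The last 3 have promoters 92.8% to 98.9% identical over aligned bases and are not independent matches. TTGCGCAA was held by none (0.183%) and TTATGNAA of the clock factors DBP, TEF and HLF by Cyp4f14 (3.38%).

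Along the Cyp2c cluster the sign of the log2 fold change mostly followed the order of the genes. The cluster spans 1.18 Mb with 12 tested genes, and Cyp2c23, an arachidonic acid epoxygenase 3.82 Mb beyond it, is left aside. Of the 8 tested genes from Cyp2c55 to Cyp2c69, 7 had a positive value, with Cyp2c67 the exception at -0.19 (SE 0.21). Over all genes tested 49.3% were negative. Cyp2c40, Cyp2c67, Cyp2c68 and Cyp2c69 share sequence and are not independent measurements. Their sum was 501 ± 29.7 CPM in WT, against 517 ± 148 CPM in Pak4_KO. Without Pak4_KO replicate 3 Cyp2c67 was at 0.006, and Cyp2c39 was at -0.031 without WT replicate 3 and at -0.194 without Pak4_KO replicate 2. Cyp2c69 was at 0.000 without Pak4_KO replicate 2. All 4 genes at the far end had a negative value, -0.29 for Cyp2c37 (SE 0.25), -0.34 for Cyp2c54 (SE 0.19), -0.31 for Cyp2c50 (SE 0.17) and -0.91 for Cyp2c70. These 4 stayed negative in each of the 13 fits run for them, which reuse the same libraries and are no separate support for the grouping. Cyp2c37, Cyp2c50 and Cyp2c54 oxidise arachidonic and linoleic acid, and they share 4.7%, 5.35% and 7.59% of their 100-base stretches with other genes. Cyp2c38 and Cyp2c70 alone had an unadjusted p under 0.05, none of the 12 was called by edgeR, the grouping was noticed in these values, and it has no test.

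**Figure D3:**
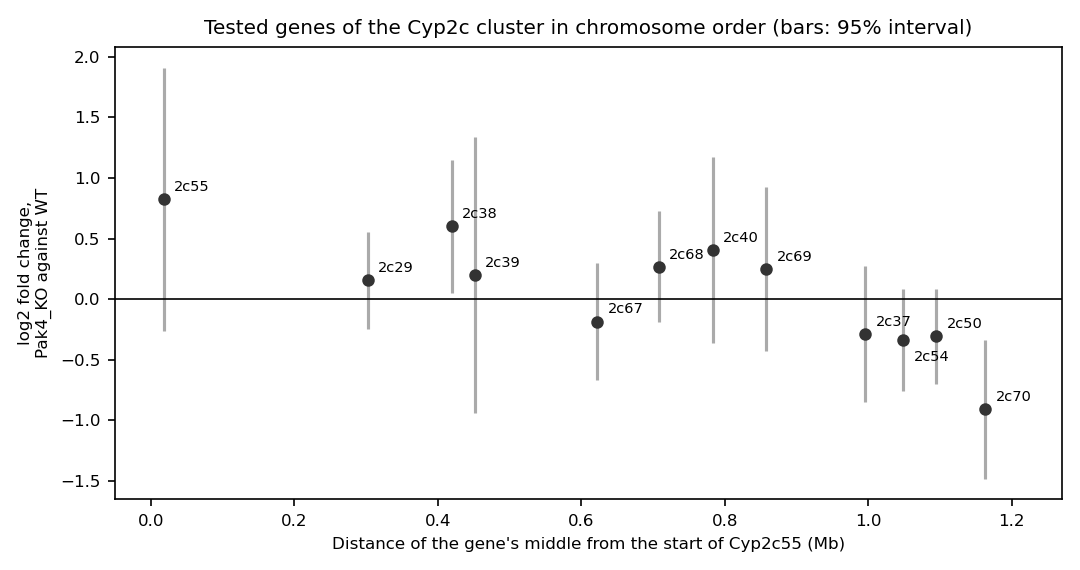
Log2 fold change of Pak4_KO against WT (y axis) for the 12 tested genes of the Cyp2c cluster against the distance of the gene's middle from the start of Cyp2c55 in Mb (x axis), with bars for the 95% interval (n = 3 per group). Cyp2c37, Cyp2c54, Cyp2c50 and Cyp2c70 at the right lie below 0, and 7 of the 8 genes to their left lie above it. Of those to the left, Cyp2c40, Cyp2c67, Cyp2c68 and Cyp2c69 share sequence and are not independent.

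Cyp2c50 was the most abundant of the lower stretch after Cyp2c70. Its levels were 436, 428 and 576 CPM in WT and 425, 411 and 328 CPM in Pak4_KO, without overlap but with Pak4_KO replicate 1 close to WT replicate 2. Its edgeR adjusted p was 0.717. The levels of Cyp2c54 and Cyp2c37 overlapped between the groups.

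Cyp2c40, Cyp2c68 and Cyp2c69 split the Pak4_KO group. Cyp2c40, a female-biased enzyme that hydroxylates arachidonic acid, stood at 37.8, 43.5 and 44.9 CPM in WT and at 66, 75 and 25.8 CPM in Pak4_KO replicates 1, 2 and 3. Cyp2c68 stood at 156, 153 and 169 CPM in WT and at 221, 222 and 133 CPM in Pak4_KO. For Cyp2c69 the values were 17.4, 17.7 and 16.8 CPM in WT and 23.8, 27 and 10.8 CPM in Pak4_KO. In all 3 genes Pak4_KO replicates 1 and 2 were above every WT library and Pak4_KO replicate 3 was below every WT library. The log2 fold changes over all libraries were 0.40 (SE 0.34), 0.27 (SE 0.20) and 0.25 (SE 0.30), and without Pak4_KO replicate 3 they were 0.74 (SE 0.15, edgeR adjusted p = 0.222), 0.47 (SE 0.14, adjusted p = 0.479) and 0.56 (SE 0.15, adjusted p = 0.413). Leaving out Pak4_KO replicate 2 instead gave 0.126, 0.149 and 0.000, and leaving out Pak4_KO replicate 1 gave 0.262, 0.155 and 0.131.

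These genes and Cyp2c67 share 19.8% to 35.4% of their 100-base stretches with other genes, so the deposited counts could split reads between them, and they are not 4 independent measurements. Their sum was less open to that, at 517, 521 and 467 CPM in WT and 616, 587 and 347 CPM in Pak4_KO. It too was highest in Pak4_KO replicates 1 and 2 and lowest in replicate 3, with group means of 501 ± 29.7 and 517 ± 148 CPM.

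**Figure D4:**
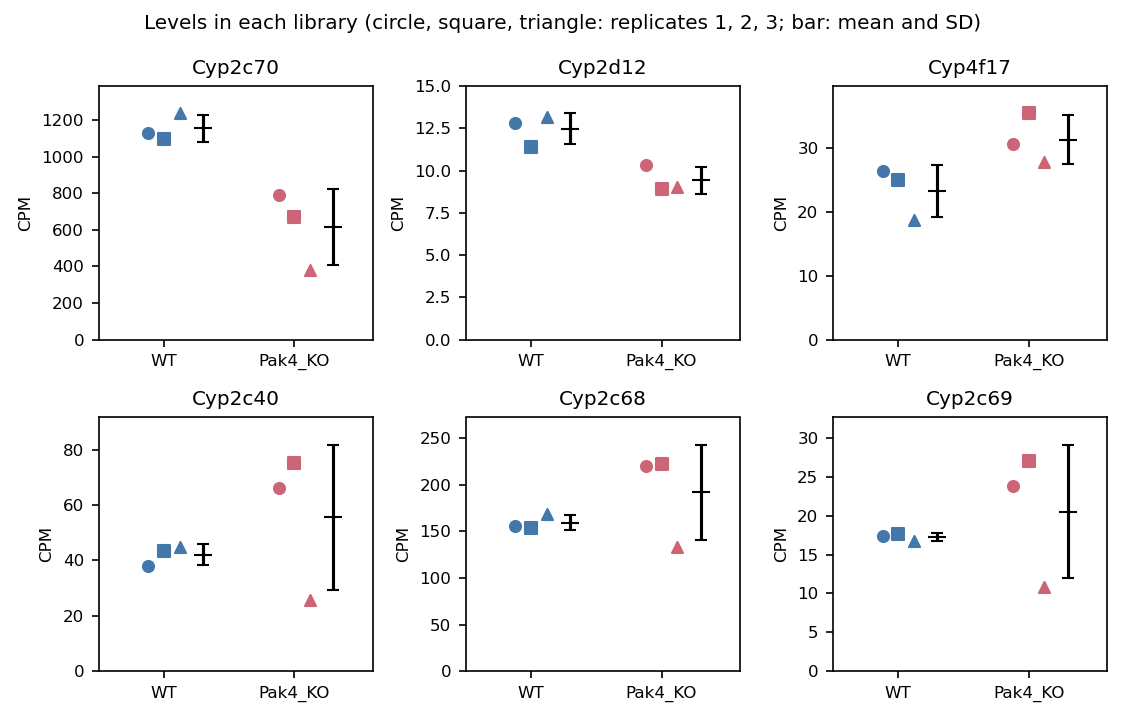
CPM (y axis, from 0) in each library of 2 groups for 6 P450 genes, with circle, square and triangle for replicates 1, 2 and 3 and a bar for mean and SD (n = 3). The groups do not overlap for Cyp2c70, Cyp2d12 and Cyp4f17 in the top row, while for Cyp2c40, Cyp2c68 and Cyp2c69 Pak4_KO replicates 1 and 2 lie above WT and replicate 3 below it.

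Of the other Cyp2c genes, Cyp2c38 stood at 7.09, 11.6 and 9.44 CPM in WT and at 11.7, 12.7 and 18.4 CPM in Pak4_KO. Its groups did not overlap, with the highest WT and lowest Pak4_KO library nearly equal. The log2 fold change was 0.60 (SE 0.24, edgeR adjusted p = 0.556), and Cyp2c38 lies inside the annotated span of Cyp2c39, whose counting could overlap with it. Cyp2c39, which also hydroxylates retinoic acid, was near 1 CPM in both groups (0.20, SE 0.50). Cyp2c55, an arachidonic acid hydroxylase inducible by xenobiotics, stood at 2.93, 1.92 and 8.03 CPM in WT and at 9.01, 5.82 and 8.06 CPM in Pak4_KO. WT replicate 3 lay within the Pak4_KO range, and the log2 fold change of 0.83 had an SE of 0.47 (edgeR adjusted p = 0.728). It was 1.66 without WT replicate 3 (SE 0.295, adjusted p = 0.0764) and 0.471 without WT replicate 2. Cyp2c29, an epoxygenase and the most abundant Cyp2c transcript of Pak4_KO liver, had a log2 fold change of 0.16 with a 95% interval of -0.24 to 0.56. Cyp2c23 had one of 0.07, with an interval of -0.34 to 0.49, and its sign turned without WT replicate 1 (-0.004) or Pak4_KO replicate 1 (-0.132).

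Summed over its 15 genes, Cyp2c stood at 3434 ± 368 CPM in WT, against 2883 ± 511 CPM in Pak4_KO. Pak4_KO replicates 1 and 2, at 3216 and 3138 CPM, lay close to WT replicates 1 and 2, at 3277 and 3170 CPM. Replicate 3 stood apart at 2295 CPM.

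The Cyp2d genes, which oxidise drugs and steroids, had 6 negative and 1 positive log2 fold change among 7 tested. The sum over the subfamily was 2111 ± 87.2 CPM in WT, against 1963 ± 262 CPM in Pak4_KO, with overlap between the groups. Cyp2d12 stood at 12.8, 11.4 and 13.2 CPM in WT and at 10.3, 8.91 and 9.02 CPM in Pak4_KO. Every Pak4_KO library was below every WT library, with a log2 fold change of -0.41 with SE 0.15 (edgeR adjusted p = 0.495).

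Cyp2d9, a male-specific testosterone hydroxylase, stood at 1048, 855 and 927 CPM in WT and at 934, 761 and 717 CPM in Pak4_KO. The groups overlapped through Pak4_KO replicate 1, and the log2 fold change was -0.23 (SE 0.16, edgeR adjusted p = 0.799). Cyp2d10 was the positive member, with 0.06 (95% interval -0.27 to 0.40) and with -0.041 when Pak4_KO replicate 1 was left out. Its sum with Cyp2d11, with which it shares sequence, was 658 ± 19.1 CPM in WT, against 682 ± 95.1 CPM in Pak4_KO. Cyp2d11 had a log2 fold change of -0.23 (SE 0.16), Cyp2d22 one of -0.16 (SE 0.13), Cyp2d26 one of -0.08 (SE 0.13) and Cyp2d40 one of -0.01 (SE 0.27), which was 0.03 with library size scaling. For Cyp2d26, at 357 ± 9.58 CPM in WT, against 336 ± 38.2 CPM in Pak4_KO, the 95% interval of -0.39 to 0.22 was among the narrower ones.

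Cyp2e1 and Cyp1a2, the pericentral enzymes, were lower in Pak4_KO replicates 2 and 3 than in any WT library, but not in replicate 1. This pattern was not confined to pericentral enzymes. The periportal enzyme Cyp2f2 had it by a narrow margin, and Cyp2j5, Cyp2j6 and Cyp2d9 were among the others that had it. Cyp2e1 stood at 2950, 3297 and 2983 CPM in WT and at 2985, 2334 and 2243 CPM in Pak4_KO. The log2 fold change was -0.29 (SE 0.17, 95% interval -0.67 to 0.09, edgeR adjusted p = 0.729). Cyp1a2, which metabolises caffeine and aromatic amines, stood at 182, 306 and 220.3 CPM in WT and at 224, 106 and 130 CPM in Pak4_KO. Its log2 fold change was -0.62 (SE 0.30, 95% interval -1.30 to 0.05, adjusted p = 0.650). It was -1.004 without Pak4_KO replicate 1, -0.394 without WT replicate 2 and -0.416 without Pak4_KO replicate 2.

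Cyp1a1, the classic target of the aryl hydrocarbon receptor (Ahr), was at 2.23 to 2.42 CPM in WT and 2.15 to 2.67 CPM in Pak4_KO. The 2 ranges overlapped throughout, with a log2 fold change of 0.10 (SE 0.22). Cyp1b1, another target that acts on oestrogens outside the liver, stood at 1.72, 1.14 and 1.63 CPM in WT and at 1.72, 1.99 and 3.92 CPM in Pak4_KO. Only Pak4_KO replicate 3 lay clearly above WT, and the log2 fold change was 0.77 (SE 0.36, edgeR adjusted p = 0.648). Without Pak4_KO replicate 3 it was 0.312.

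Among the pericentral marker genes Glul, Oat, Slc1a2, Rhbg, Axin2, Lgr5, Gulo, Lect2 and Tbx3, 8 of 9 had negative values, and the median log2 fold change was -0.228. Over all genes tested 49.3% were negative. None was called by edgeR or DESeq2. An unadjusted p under 0.05, held by 8.21% of all genes, was found for Gulo (-0.49), Lect2 (-0.47) and Slc1a2, which was the positive one (0.44). Their summed level overlapped, at 2298 to 2997 CPM in WT and 2098 to 2814 CPM in Pak4_KO. The 9 periportal markers had a median of 0.049, with sums of 9121 to 10342 CPM in WT and 8902 to 11128 CPM in Pak4_KO. Oat, Rhbg, Gulo and Lect2 had the library pattern of Cyp2e1 and Cyp1a2, and so had the periportal markers Ass1, Hal and Gls2. The other markers of both lists did not have it. Whether zonation has a part in the Cyp2e1 and Cyp1a2 values was not tested.

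Cyp2f2, the periportal enzyme that also bioactivates naphthalene in lung, stood at 395, 492 and 360.1 CPM in WT and at 551, 353 and 351 CPM in Pak4_KO. The log2 fold change was 0.01 (SE 0.21, 95% interval -0.48 to 0.49), and it was -0.239 without Pak4_KO replicate 1. Cyp2f2, Cyp2g1 and Cyp2s1 are the P450 genes nearest to Pak4 on chromosome 7, at 1.43, 1.74 and 2.74 Mb from it. Cyp2g1, known from the olfactory mucosa and female-biased in liver, stood at 0.58, 1.26 and 0.437 CPM in WT and at 0.33, 0.508 and 0.24 CPM in Pak4_KO, with overlap and a log2 fold change of -1.08 with SE 0.52 (edgeR adjusted p = 0.656). Without WT replicate 2 it was -0.495.

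All 4 tested Cyp2j genes, which include arachidonic acid epoxygenases, had negative log2 fold changes. Cyp2j5, the main one in liver, stood at 509, 581 and 570.1 CPM in WT and at 529, 439 and 394 CPM in Pak4_KO. Pak4_KO replicate 1 lay within the WT range, and the log2 fold change was -0.29 (SE 0.15, edgeR adjusted p = 0.698). Cyp2j8 stood at 4.09, 2.93 and 3.62 CPM in WT and at 2.31, 2.52 and 1.32 CPM in Pak4_KO. Its groups did not overlap, with a log2 fold change of -0.79 (SE 0.29, 95% interval -1.46 to -0.12, adjusted p = 0.503). Cyp2j6 had a log2 fold change of -0.28 (SE 0.19) and Cyp2j9 one of -0.14 (SE 0.19), or 0.010 without Pak4_KO replicate 3. The subfamily sum was 675 ± 39.4 CPM in WT, against 555 ± 94.5 CPM in Pak4_KO, and only replicate 1 of Pak4_KO, at 658 CPM, reached the WT range of 629.7 to 699.99 CPM.

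Cyp2r1, which hydroxylates vitamin D in the liver, stood at 11.4 ± 2.06 CPM in WT, against 10.2 ± 1.78 CPM in Pak4_KO, with a 95% interval of -0.61 to 0.31 around its log2 fold change of -0.15. Cyp2u1, a male-biased fatty acid hydroxylase, stood at 6.91, 13.3 and 5.07 CPM in WT and at 8.28, 2.2 and 3.2 CPM in Pak4_KO. Replicates 2 and 3 of Pak4_KO were below WT and replicate 1 was not, and the log2 fold change was -0.89 (SE 0.52, edgeR adjusted p = 0.732). It was -1.64 without Pak4_KO replicate 1, -0.555 without Pak4_KO replicate 2 and -0.396 without WT replicate 2.

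The Cyp4f genes, among them hydroxylases of leukotrienes and fatty acids, had 4 positive and 3 negative log2 fold changes. Cyp4f17 stood at 26.4, 24.9 and 18.7 CPM in WT and at 30.7, 35.5 and 27.8 CPM in Pak4_KO. Every Pak4_KO library was above every WT library, with a log2 fold change of 0.43 (SE 0.17, 95% interval 0.04 to 0.81, edgeR adjusted p = 0.556). Cyp4f14, a leukotriene hydroxylase and the most abundant of the subfamily, stood at 149, 199 and 159.9 CPM in WT and at 165, 107 and 113 CPM in Pak4_KO. Like Cyp2e1 and Cyp1a2, it was below WT in Pak4_KO replicates 2 and 3, and its log2 fold change was -0.40 (SE 0.20, adjusted p = 0.664). Cyp4f15 had a log2 fold change of 0.28 (SE 0.20), Cyp4f13 one of 0.02 (SE 0.13), or -0.088 without Pak4_KO replicate 1, and Cyp4f16 one of -0.08 (SE 0.28). Cyp4f39, a hydroxylase of very long fatty acids in skin, was under 0.4 CPM in each library.

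Cyp4f18, the leukotriene hydroxylase of neutrophils, stood at 1.13 ± 0.638 CPM in WT, against 0.77 ± 0.282 CPM in Pak4_KO (log2 fold change -0.55, SE 0.54, edgeR adjusted p = 0.880). All 7 neutrophil markers had negative log2 fold changes, with 0 called by edgeR, 2 by DESeq2 and 4 at an unadjusted p under 0.05. Over all genes tested 49.3% were negative, DESeq2 called 2.06%, and 8.21% had an unadjusted p under 0.05. Their summed level was 32.6 to 59.3 CPM in WT and 21 to 26.6 CPM in Pak4_KO. Their part in the Cyp4f18 value was not tested. Cyp4b1, which activates protoxins in lung, stood at 15, 7.68 and 10.7 CPM in WT and at 9.98, 12.5 and 19.9 CPM in Pak4_KO, with overlap (0.35, SE 0.31). Cyp4v3, a fatty acid hydroxylase whose human counterpart is mutated in a corneal and retinal dystrophy, stood at 326 ± 54.6 CPM in WT, against 291 ± 97.2 CPM in Pak4_KO (-0.16, SE 0.24, or 0.029 without Pak4_KO replicate 3).

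Across the set the Pak4_KO libraries differed from one another more than the WT libraries did. Pak4_KO replicate 3 held the lowest level of 23 of the 41 tested genes (56.1%), where it held the lowest level of 17.4% of all genes tested. The median deviation from each gene's mean, on the log2(CPM + 0.1) scale, was -0.305 in that library, against 0.111 and 0.010 in Pak4_KO replicates 1 and 2 and 0.025 to 0.143 in WT. Summed TPM of the 50 genes was 9329 to 9644 in WT and 10003, 8087 and 7760 in Pak4_KO replicates 1, 2 and 3. The TMM factor of Pak4_KO replicate 3 was 1.078, which lowers its CPM, against 0.958 to 1.001 in the other libraries. With library size scaling only, the summed CPM was 10299 to 10506 in WT. It was 10576, 8780 and 8301 in Pak4_KO replicates 1, 2 and 3. For the 31 genes with at least 10 CPM, the median SD of log2(CPM + 0.1) was 0.214 in WT and 0.298 in Pak4_KO, beside 0.161 and 0.188 over the 7417 genes at that level. The SD was larger in Pak4_KO for 23 of the 31 (74.2%), against 56.6% of all genes.

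In Pak4_KO replicate 3 the summed hepatocyte markers, at 81415 CPM, lay within the WT range of 74739 to 93437 CPM. The summed markers of cholangiocytes (85.8 CPM), endothelial cells (328 CPM) and stellate cells (394 CPM) were higher there than in the other 5 libraries, which reached 60.9, 295 and 356 CPM. These sums rest on a few abundant genes, such as Spp1, Stab2, Dcn and Reln, and the single markers disagreed. Krt19 and Sox9 were lower there than in most other libraries, and Des was lowest there. Stab2, Kdr and Vwf were higher in Pak4_KO replicate 1. Kupffer cell markers, at 347 CPM, lay within the range of the others. Their part in the low P450 levels of this library was not tested.

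**Figure D5:**
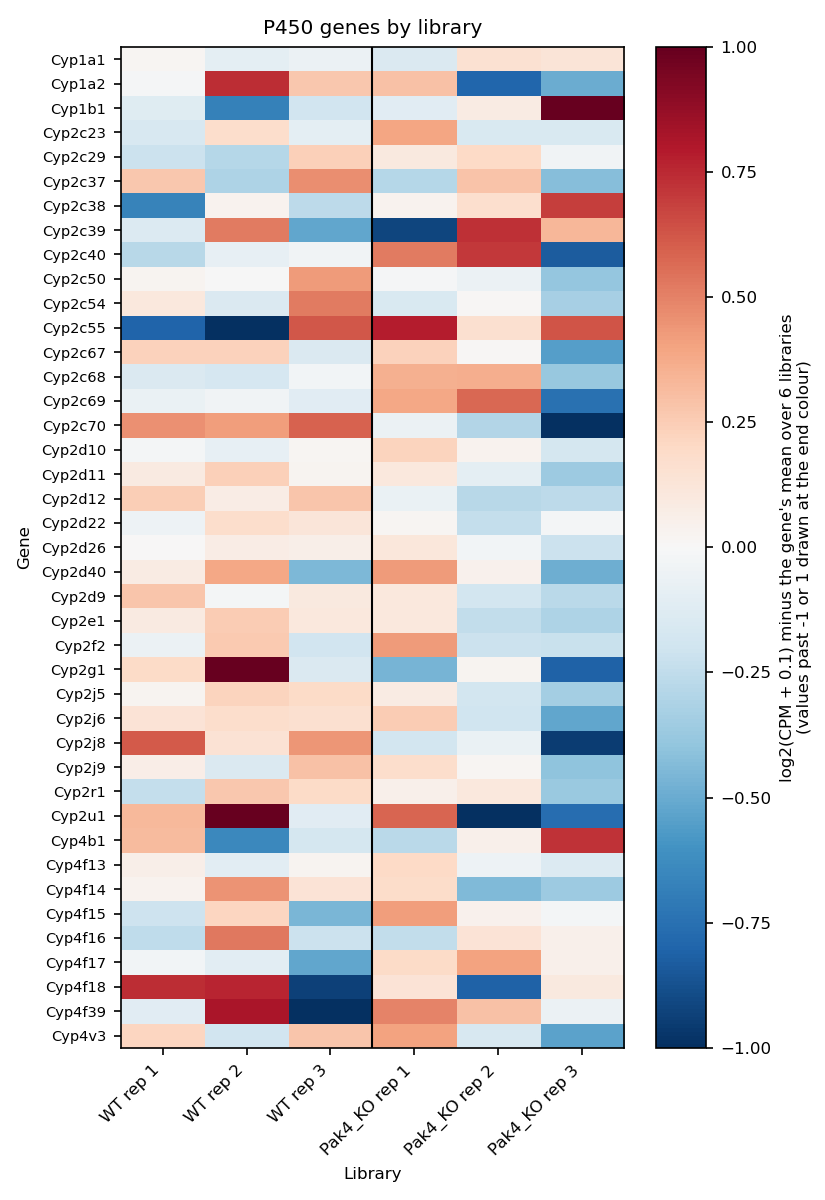
Level of the 41 tested P450 genes (y axis) in each of the 6 libraries (x axis), as log2(CPM + 0.1) minus the gene's mean over the libraries, red above and blue below that mean, with a line between the groups. Pak4_KO replicate 3 is the lowest library for 23 of the 41 genes.

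The labels give no sex for these mice, so whether the groups match in sex is unknown here. The summed levels of P450 genes that differ between the sexes did not separate the groups. Of the 5 female-biased members, Cyp2c38, Cyp2c39, Cyp2c40, Cyp2c69 and Cyp2g1, 4 had positive log2 fold changes. The summed level of the 5 was 63.7 to 75.5 CPM in WT and 102, 117 and 56.5 CPM in Pak4_KO replicates 1, 2 and 3. Replicates 1 and 2 thus lay above every WT library and replicate 3 below. Both male-biased members, Cyp2d9 and Cyp2u1, had negative values. Their sum was 1055, 868 and 932 CPM in WT and 942, 764 and 721 CPM in Pak4_KO. This sum was almost all Cyp2d9, and that of the female-biased members was mostly Cyp2c40 and Cyp2c69, which share sequence. None of the 7 was called by edgeR or DESeq2, and Cyp2c38 alone had an unadjusted p under 0.05.

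Partners and regulators of the P450 enzymes were read from lists of 9 electron donors, 12 genes of haem synthesis and breakdown, 8 of the Ahr pathway, 12 epoxide hydrolases and eicosanoid enzymes, and 20 regulators. None of the 58 tested was called by edgeR in either direction, while 3 were called by DESeq2 (Bcl6, Foxa3 and Ephx1) and 6 had an unadjusted p under 0.05. Over all genes tested, DESeq2 called 2.06% and 8.21% had such a p. The list medians were -0.091, -0.005, -0.146, -0.236 and -0.022. Por, the reductase that feeds all microsomal P450 enzymes, stood at 424 ± 44.2 CPM in WT, against 443 ± 15 CPM in Pak4_KO (log2 fold change 0.06, SE 0.13). Of the electron donors, Cyb5a, cytochrome b5, had -0.26 (SE 0.15) and its reductase Cyb5r3 -0.28 (SE 0.20). Hmox1, the inducible haem oxygenase, had a log2 fold change of -0.996 with SE 0.47 (edgeR adjusted p = 0.648) and Hmox2 one of -0.21 (SE 0.14). Ahr had one of -0.46 (SE 0.23) and its target Nqo1 one of -0.30 (SE 0.30).

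Ephx1 and Ephx2, epoxide hydrolases that convert the products of many of these enzymes to diols, were the 2 genes of their list of 12 whose levels did not overlap between the groups. Both were higher in Pak4_KO, as were 7.35% of all genes tested without overlap. Ephx1, the microsomal form, stood at 179.7 ± 4.02 CPM in WT, against 261 ± 38.5 CPM in Pak4_KO (log2 fold change 0.54, SE 0.14, edgeR adjusted p = 0.255). Ephx2, the soluble form that acts on arachidonic acid epoxides, stood at 601 ± 53.3 CPM in WT, against 792 ± 61.6 CPM in Pak4_KO (0.40, SE 0.14, adjusted p = 0.467). Of the regulators, Bcl6, a repressor in the growth hormone pathway, had -0.78 (SE 0.15, edgeR adjusted p = 0.0977) and Foxa3, a liver forkhead factor, -0.72 (SE 0.18, edgeR adjusted p = 0.235). Both were lower in 3 of 3 Pak4_KO libraries than in every WT library, as were Foxa2 (-0.35, SE 0.14) and Stat5a (-0.19, SE 0.14). Of all genes tested, 6.06% were lower in Pak4_KO without overlap.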

How the data were processed

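Liver RNA of 6 libraries was measured, 3 WT and 3 Pak4_KO. Per the labels, total RNA went into a stranded mRNA kit from Illumina. Per the submitters' processing notes, StringTie 2.1.3b, HISAT2 2.1.0 and Bowtie2 2.3.4.1 were used with build mm10. For annotation release, strand setting and reads with several matches the entry is: not given in the sources used here. Deposited by the authors were unnormalised read counts per gene and TPM, with these names in the headers. Their deposited FPKM were not used. Values of 2 reads outnumber values of 1 in all 6 libraries, so each pair may have been entered as 2 reads, and the totals may overstate the precision.

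The count model was that of edgeR 4.0.16, run in R 4.3.3 (filterByExpr, TMM, glmQLFit and glmQLFTest, all 6 libraries, no covariate, two-sided). Benjamini-Hochberg adjustment ran over all 16197 genes tested, and genes were called under 0.05. SE is the absolute log2 fold change over the square root of F, and 95% intervals use the fit's degrees of freedom. The procedure was tested on simulated data. Positions and promoters are from RefSeq, GRCm38.p6 (all 50 genes matched), and shared stretches from GENCODE M21 transcripts. The members, lists and the rule for naming genes were chosen with earlier results of these data known. The rule names P450 genes with a mean of at least 10 CPM, the 5 largest fold changes each way, the sex-biased members and the 2 smallest p-values per list. The remaining P450 genes, Por, Hnf4a, Foxa2, Stat5a and the marker genes are named in addition. Alternatives were the Wald test of DESeq2 1.42.0, its size factors, library size only, no filter, a minimum of 10 reads per library, the replicate block, each library left out, and TPM for subfamily sums.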

Additional observations from a re-analysis of the deposited data

How the results depend on the processing

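No P450 gene was called under any setting except the DESeq2 Wald test, which called 1, Cyp2c70 (log2 fold change -0.92). Over all genes, 76 were called, against 334 with the DESeq2 Wald test, 44 with at least 10 reads in every library and 37 to 81 with 1 library left out. The median log2 fold change of the P450 genes lay between -0.159 and -0.090 with all libraries, and without 1 library between -0.212 and 0.006. With the replicate block it was -0.143 and 73 genes were called. Deviations of same-numbered libraries correlated at 0.067, -0.201 and 0.147, so the numbers were not taken to pair the samples, and the block ended or gave no P450 call. Signs turned for members near 0. Cyp2d40 was 0.029 with library size only and Cyp2f2 -0.012 with the replicate block. Ranges without 1 library were -0.132 to 0.181 for Cyp2c23, -0.194 to 0.577 for Cyp2c39, -0.360 to 0.006 for Cyp2c67, -0.041 to 0.157 for Cyp2d10, -0.245 to 0.202 for Cyp2d40, -0.239 to 0.148 for Cyp2f2, -0.263 to 0.010 for Cyp2j9, -0.088 to 0.085 for Cyp4f13 and -0.452 to 0.029 for Cyp4v3. The cause of these turns was not tested. With 3 libraries a group, moderate changes of single genes could be missed.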

Other observations

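Of 9 further rows with symbols of these subfamilies that are annotated as pseudogenes, 4 had enough reads to be tested. By edgeR 0 were called and 2 had an unadjusted p under 0.05, and by DESeq2 2 were called, Cyp2c53-ps and Cyp2d37-ps (adjusted p = 0.0165 and 0.0178). Over all genes tested, edgeR called 0.469%, DESeq2 2.06%, and 8.21% had an unadjusted p under 0.05. They are named after their values were seen. Cyp2c53-ps stood at 5.48, 21.4 and 1.29 CPM in WT and at 0.519, 0.953 and 0.44 CPM in Pak4_KO. Every Pak4_KO library was below every WT library, WT varied widely, and the log2 fold change was -3.87 (SE 0.92, edgeR adjusted p = 0.207). It holds 1.36% of the 100-base stretches of Cyp2c29, whose log2 fold change was 0.16. Cyp2d37-ps stood at 39.1, 36.7 and 41.5 CPM in WT and at 23.1, 19.3 and 29.3 CPM in Pak4_KO, without overlap (log2 fold change -0.71, SE 0.17, adjusted p = 0.204). Cyp2d13 stood at 58.5, 58 and 42.9 CPM in WT and at 43.9, 39.9 and 45.1 CPM in Pak4_KO (-0.31, SE 0.15), with overlap.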
